A study of Mus musculus with 8 samples.

Results

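The genes described are the Wnt ligands, the Frizzled receptors and Lrp coreceptors, the R-spondins and Lgr receptors, the secreted antagonists, and Axin2 and Lef1. They were chosen by symbol, with earlier results of these data known, and 1 gene whose symbol fits was left out. The choice took 47 of the 18193 genes on the array, namely 18 Wnt ligands, 10 Frizzled receptors, 2 coreceptors (Lrp5 and Lrp6), 3 R-spondins, 2 Lgr receptors, 4 Sfrp and 4 Dkk genes, Wif1, Axin2, Lef1 and Fzd10os. The last is annotated as an opposite-strand transcript of Fzd10 and encodes no receptor. Of the 47 genes, 25 had a mean level at or above the 40th percentile of all genes (an intensity of 211) and were tested, and 22 lay under this filter.

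Wnt proteins are secreted lipid-modified ligands that bind Frizzled receptors and, in the branch that stabilises beta-catenin, the coreceptors Lrp5 and Lrp6. R-spondins bind the Lgr receptors and raise the level of Frizzled at the cell surface, while secreted antagonists of the Sfrp, Dkk and Wif families bind the ligands or the coreceptors. Stabilised beta-catenin acts in the nucleus with transcription factors such as Lef1, and Axin2 is a widely used target gene that feeds back on the pathway. In the mammary gland, Wnt signals from stroma and epithelium are known to take part in ductal branching and in the maintenance of basal stem cells.

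Expression was measured on 8 arrays. The tissue was the whole inguinal mammary gland of virgin mice aged 12 to 13 weeks whose gonads had been removed. Subcutaneous 17β-estradiol (E2), the principal estrogen of the circulation, had been given to 6 groups, with 1 array each, collected 1 h, 3 h or 6 h later, or 12 h, 18 h or 24 h later. Vehicle solution had been given to the controls of the other 2 arrays, vehicle 1 and vehicle 2. The sample titles do not say whether these were separate groups of mice. None of the mice analysed here had intact gonads. The times are those of the sample titles, whereas every sample's description reads 24 h. Both vehicle arrays were labelled 24 h, so at earlier times E2, injection and time of day cannot be told apart. Tissue was collected from all mice of a group, and whether their RNA was pooled on an array, how many mice there were and their sex are not given in the sources used here. The labels give the dose in conflicting units, so none is stated. In whole tissue, fewer cells of a type and less RNA per cell cannot be told apart.

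The arrays of 1, 3 and 6 h formed an early window (n = 3) and those of 12, 18 and 24 h a late window (n = 3), to be set against vehicle (n = 2) and against each other. Markers of epithelium, fat, fibroblasts, vessels, lymphocytes and macrophages were present, as a whole mammary gland holds them, with 20 of 22 luminal, 7 of 11 myoepithelial, 12 of 14 adipocyte and 11 of 11 fibroblast markers above the level filter. Against the vehicle mean, 18 of 24 skeletal muscle markers above the filter averaged 0.78, 0.63, 1.23, 0.21, 0.81 and 0.94 on the log2 scale from 1 to 24 h, and luminal markers averaged -0.043, -0.16, -0.12, 0.31, 0.24 and 0.14. The 18 tested T lymphocyte markers of a list of 22 averaged 0.029, 0.056, -0.097, 0.024, -0.32 and -0.25. The median intensity of an array was 173.9 at the lowest and 180.49 at the highest.

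No tested Wnt pathway gene passed the test in any comparison. In limma, 0 of the 25 genes reached an adjusted p below 0.05 for the early window against vehicle, where 0 of 10916 genes (0%) did, and 0 of 25 for the late window against vehicle, again with 0 of 10916 genes (0%). For the late against the early window 0 of 25 passed, beside 60 of all genes (0.55%), and for a slope on the log2 of the hours over the 6 E2 arrays 0 of 25, beside 9 of all genes (0.0824%). At an unadjusted p below 0.05 the counts of the 25 genes were 2, 0, 3 and 3 in these 4 comparisons, which is 8%, 0%, 12% and 12%, against 5.38%, 7.6%, 19.1% and 20.4% of all tested genes. Every E2 time had 1 array and vehicle had 2, so the p-values rest on array-to-array spread, part of it possibly technical. Within a window that spread also holds differences between times.

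The precision bounds how far the average of a window could have moved. The 95% interval of the difference from vehicle extended a median of 0.16 on the log2 scale to either side. In the early window all 25 intervals lay inside a 1.5-fold change in either direction, and in the late window 24 of 25 did, the exception being Lrp5. These intervals are not adjusted for the number of genes. The median difference of the 25 genes from vehicle was -0.02 in the early window and -0.039 in the late window, beside 0.013 and -0.01 for all tested genes.

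At single times, the median absolute distance of the 25 genes from the vehicle mean was set beside that of all tested genes. For the 25 genes it was 0.059, 0.069, 0.104, 0.062, 0.053 and 0.077 in log2 units from 1 to 24 h. For all tested genes it was 0.055, 0.059, 0.071, 0.059, 0.072 and 0.08. Of the 25 genes, 0 lay at least 1.5-fold above or below both vehicle arrays at any of the 6 times. The shares of all tested genes were 0.321%, 0.797%, 0.742%, 0.211%, 0.229% and 0.22% from 1 to 24 h. With shares this small, a count of 0 among 25 does not set these genes apart. A second limma model gave every time its own mean and took the spread from the vehicle pair alone, moderated across genes (7 means, 1 residual degree of freedom). It also called 0 of the 25 genes at each time, with 2, 4, 1, 2, 2 and 1 of them at an unadjusted p below 0.05 from 1 to 24 h, beside 2.75%, 6.53%, 7.96%, 4.37%, 5.84% and 6.4% of all tested genes. At the adjusted threshold that model called 0.0641%, 0.595%, 0.366%, 0.0366%, 0% and 0% of all tested genes at these times. The largest single distances from the vehicle mean were those of Lgr4 at 3 h (-0.48), Sfrp2 at 12 h (-0.48) and Lrp5 at 3 h (0.43). Among the 22 genes under the level filter, Dkk2 alone passed the 1.5-fold threshold, below both vehicle arrays at 3 and 6 h. Of all genes under the filter, 0.344% passed it in either direction at 3 h and 0.385% at 6 h. With a threshold of 1.3-fold, 2 of the 25 tested genes passed at 3 h (Lrp5 above and Lgr4 below, beside 1.91% of all genes) and 1 at 12 h (Sfrp2 below, beside 0.595%).

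**Figure D1:**
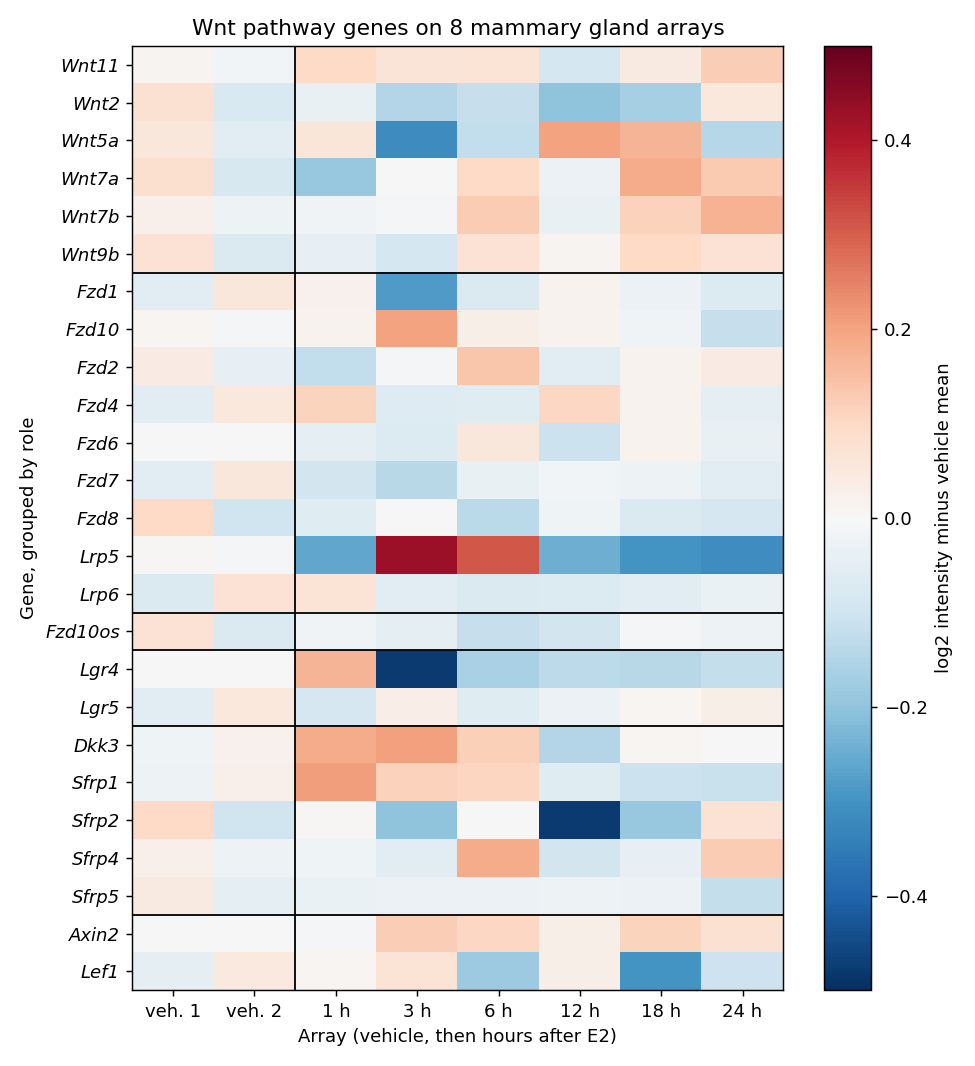
Log2 intensity of the 25 tested Wnt pathway genes on each array minus the mean of the vehicle arrays (color scale in log2 units), with vehicle arrays at the left, E2 arrays ordered from 1 to 24 h, and genes grouped by role (ligands, receptors and coreceptors, Fzd10os, Lgr receptors, antagonists, Axin2 and Lef1). Most cells are pale, and the strongest colors are Lgr4 at 3 h and Sfrp2 at 12 h (both -0.48) and Lrp5 at 3 h (0.43).

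The 3 h array held several of the largest distances below vehicle among these genes, those of Dkk2, Lgr4, Wnt5a and Fzd1. Promoter sequences of the 3 of these genes matched in the RefSeq table (GRCm38.p6) are shown to give the regions in which letters of the estrogen response element and of the beta-catenin partner site were looked for. Each runs 5′ to 3′ on the gene's own strand, from 250 bases before to 50 bases after the annotated start. Capitals mark a match to CTTTGA, the core of the TCF/LEF site, here read on the opposite strand as TCAAAG from base 9 of the Fzd1 window.
Dkk2, chr3:132085042-132085341, plus strand: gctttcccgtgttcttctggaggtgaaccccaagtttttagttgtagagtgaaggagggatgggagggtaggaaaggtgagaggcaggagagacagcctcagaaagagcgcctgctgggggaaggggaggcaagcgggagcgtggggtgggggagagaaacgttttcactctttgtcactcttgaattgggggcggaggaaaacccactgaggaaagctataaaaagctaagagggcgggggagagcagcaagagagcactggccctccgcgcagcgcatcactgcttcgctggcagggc
Lgr4, chr2:109917397-109917696, plus strand: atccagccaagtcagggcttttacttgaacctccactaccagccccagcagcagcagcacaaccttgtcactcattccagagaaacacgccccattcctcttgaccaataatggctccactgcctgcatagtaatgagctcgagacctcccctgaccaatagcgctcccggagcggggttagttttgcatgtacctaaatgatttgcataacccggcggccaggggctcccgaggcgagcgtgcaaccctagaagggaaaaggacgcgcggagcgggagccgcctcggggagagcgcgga
Fzd1, chr5:4758167-4758466, minus strand: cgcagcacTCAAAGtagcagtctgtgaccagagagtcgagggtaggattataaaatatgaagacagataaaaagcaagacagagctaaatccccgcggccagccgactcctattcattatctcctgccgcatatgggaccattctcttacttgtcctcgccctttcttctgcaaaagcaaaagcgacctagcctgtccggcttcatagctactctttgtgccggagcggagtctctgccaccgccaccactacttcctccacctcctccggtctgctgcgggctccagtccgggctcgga

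RefSeq promoters were matched for 29 of the 47 genes, 35 windows in all. Both strands were searched for the full estrogen response element (GGTCA and its inverted copy TGACC around any 3 bases), a single arm of it (AGGTCA), and CTTTGA, and matches may overlap. The full element was in 0 of the 35 windows and in 0.07% of the 32851 windows of all genes. The single arm was in 1 window, that of Wnt16 (2.86%, against 16.3% of all windows). CTTTGA was in 5 windows, of Dkk1, Fzd1, Lef1, Wnt11 and Wnt5b (14.3%, against 16%). A match describes letters in these windows only, and distant sites were not searched.

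Among the tested ligands, Wnt5a, which acts largely outside the beta-catenin branch, varied most. Its intensity was 419 and 387 in the vehicle arrays, then 419, 324, 369.8, 463, 452 and 365 from 1 to 24 h. The 3 h array was the lowest of all and the 12 and 18 h arrays the highest, so that E2 arrays lay on both sides of the vehicle arrays. On the log2 scale Wnt5a stood at 0.059, -0.31, -0.12, 0.20, 0.17 and -0.14 against the vehicle mean. The late window lay 0.20 ± 0.109 (SE), n = 3 each, above the early window (limma adjusted p = 0.336). All 4 probe sets of Wnt5a were lower at 3 h than their vehicle mean, at -0.31, -0.31, -0.30 and -0.10. The high 12 h value was seen in the used probe set only, as the others stood at 0.05, -0.014 and -0.017 there. At 18 h the others stood at -0.01, 0.17 and 0.11.

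By the probe sets used, Wnt7a and Wnt7b, closely related ligands, were highest late in the series. Wnt7a had intensities of 721 and 645 in the vehicle arrays, then 598, 683, 731, 668, 776 and 748 from 1 to 24 h. The 1 h array was the lowest and the 18 h array the highest. The slope over the E2 arrays was 0.066 ± 0.0196 (SE) log2 units per doubling of the hours (limma adjusted p = 0.152). The 2 other probe sets of Wnt7a stood at 0.10 and -0.001 at 18 h, against 0.19 for the one used. Both were under the level filter, the first with 147 and 103 and the other with 24.7 and 24.1 in the vehicle arrays. Wnt7b had 781 and 756 in the vehicle arrays, then 757, 763, 838, 748, 832 and 865 from 1 to 24 h, with the 24 h array highest and its late window 0.083 ± 0.072 (SE) above vehicle (limma adjusted p = 0.735, n = 3 against 2). The second Wnt7b probe set, with 183.5 and 186 in the vehicle arrays, did not show this. It stood at -0.093, -0.062 and 0.005 at 12, 18 and 24 h.

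Wnt2, a ligand of the beta-catenin branch, measured 443 and 399 in the vehicle arrays, then 409.9, 379, 387, 366, 374 and 436 from 1 to 24 h. No E2 array exceeded both vehicle arrays, and 4 of 6 were below both. Its differences from vehicle were -0.10 ± 0.0835 (SE) in the early and -0.11 ± 0.0835 (SE) in the late window, with limma adjusted p = 0.962 and 0.71, n = 3 against 2. Wnt9b, a ligand known from kidney and facial development in mice, had 297 and 269 in the vehicle arrays, then 275, 266, 297, 286, 303 and 297 from 1 to 24 h, all close to the range of the vehicle arrays. Wnt11 differed from vehicle by 0.077 ± 0.0668 (SE) in the early window (limma adjusted p = 0.969, n = 3 against 2), and its 3 early arrays, with 288, 281 and 282, were all above the vehicle arrays, with 271 and 267.

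The other 12 ligands lay under the level filter, with intensities from 18.4 for Wnt3 to 226 for Wnt16. Wnt6 had 109 and 109.7 in the vehicle arrays, then 128, 119.5, 149.9, 106, 117 and 125 from 1 to 24 h, so that the 6 h array exceeded the vehicle mean by 0.45 in log2 units. Its used probe set is of a kind that can also bind other transcripts, and the other Wnt6 probe set stood at 0.16 at 6 h. Wnt5b, the close relative of Wnt5a, measured 107 and 104 in the vehicle arrays, then 108, 111, 114, 109, 109 and 113 from 1 to 24 h. All 6 E2 arrays exceeded both vehicle arrays for Wnt5b, the highest standing 0.11 over the vehicle mean. The same was so of Wnt3, with 18.4 and 19.1 in the vehicle arrays, then 20.1, 20.3, 20, 19.1, 20.6 and 20.5 from 1 to 24 h, and of Wnt8a, with 73.8 and 73.8 in the vehicle arrays, then 74.7, 78.5, 77.7, 77.5, 76.3 and 82 from 1 to 24 h. At 12 h Wnt3 exceeded the nearer vehicle array by 0 on the log2 scale to the third decimal. The Wnt3 probe set, like the one used for Wnt6, is of a kind that can also bind other transcripts. In all, 4 of the 22 genes under the level filter (these and Fzd9) had all 6 E2 arrays above both vehicle arrays, beside 5.32% of all genes under the filter. Of the 25 tested genes 0 did so, beside 2.78% of all tested genes, and 0 had all 6 below both, beside 1.72%. Wnt10b, a ligand that holds back fat cell formation in mice, had 188 and 189 in the vehicle arrays, then 179.9, 193, 198, 177, 183 and 212 from 1 to 24 h. Wnt1, Wnt2b, Wnt3a, Wnt8b, Wnt9a, Wnt10a and Wnt16 stood between -0.24 and 0.21 against their vehicle means at all 6 times.

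Some ligand genes are neighbours in the mouse genome and are given here side by side. Wnt6 lies next to Wnt10a, and at 6 h the pair stood at 0.45 and 0.13 against vehicle. Wnt3a lies next to Wnt9a, and at 12 h they stood at 0.15 and -0.24. Wnt10b and Wnt1 stood at 0.17 and 0.03 at 24 h, and Wnt9b and Wnt3 at 0.07 and 0.13.

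Lrp5, a coreceptor that passes the Wnt signal on to beta-catenin, had the widest swing of the tested genes. Its intensity was 319.6 and 317 in the vehicle arrays, then 266, 428, 395, 269, 259 and 257 from 1 to 24 h. The 3 and 6 h arrays were above both vehicle arrays, and the other 4 E2 arrays were below both. On the log2 scale these values were -0.26, 0.43, 0.31, -0.24, -0.30 and -0.31 against the vehicle mean, while the vehicle arrays differed by 0.012. In the 7-mean limma fit, the 3 h value had an unadjusted p of 0.00317 and an adjusted p of 0.182, and the 6 h value an adjusted p of 0.418.

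By window, Lrp5 averaged 8.03 ± 0.036 in the late and 8.47 ± 0.368 in the early window on the log2 scale (SD, n = 3 each). Late minus early was -0.44 ± 0.144 (SE), with a 95% interval of -0.77 to -0.12 (limma adjusted p = 0.167). The 1 h array lay with the late arrays. Without the 1 h array the difference was -0.65 (limma adjusted p = 0.00325), and the slope on log2 hours was -0.28 per doubling (limma adjusted p = 0.0124), against -0.069 (adjusted p = 0.578) with it. Without that array the fits called 2.13% of all tested genes for the late against the early window and 2.73% for the slope. Leaving out any other array called 0 of the tested Wnt pathway genes in these comparisons, and the limma adjusted p of Lrp5 was then between 0.146 and 0.4544 for the late against the early window. Lrp5 had 1 probe set, so no second measurement of it could be set beside these values.

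**Figure D2:**
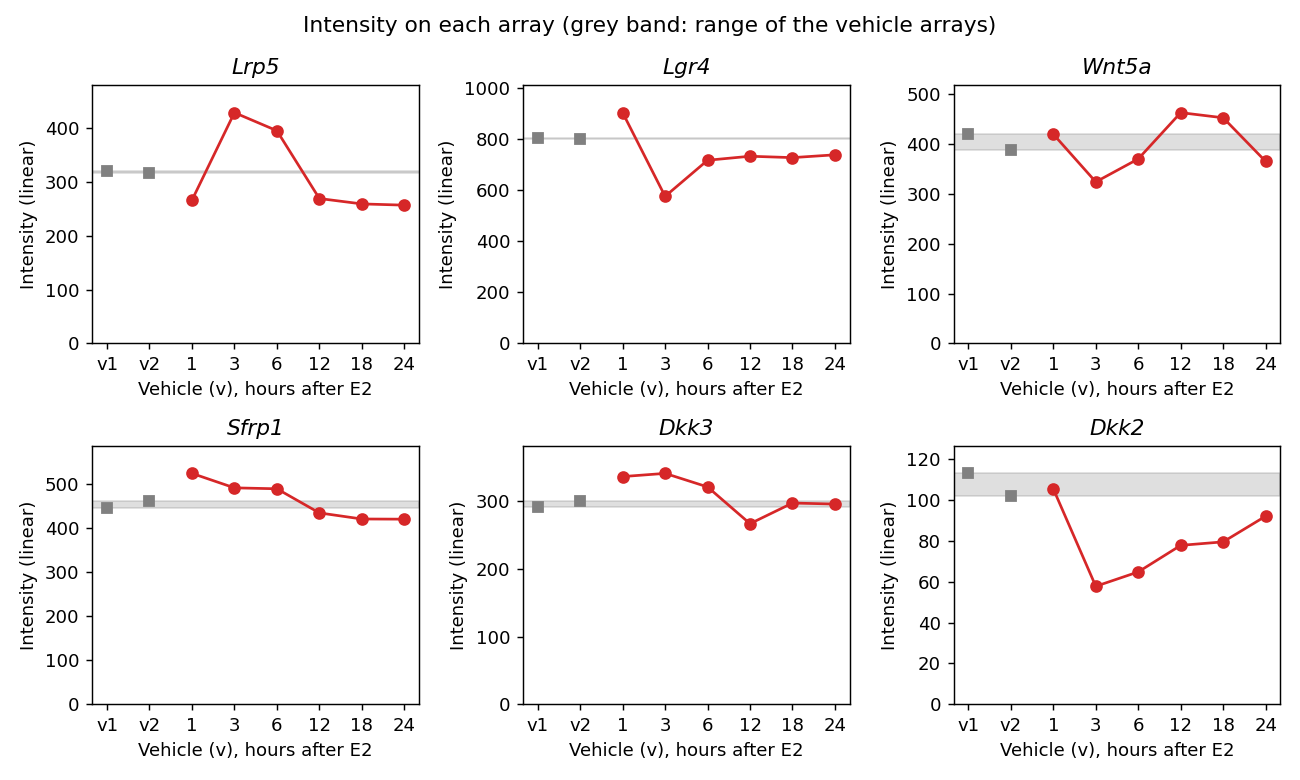
Intensity (linear scale, starting at 0) of Lrp5, Lgr4, Wnt5a, Sfrp1, Dkk3 and Dkk2 on every array: grey squares are the vehicle arrays, the grey band is their range, red points are the E2 arrays at evenly spaced times from 1 to 24 h. Lrp5 is above the band at 3 and 6 h only, Lgr4 and Dkk2 are lowest at 3 h, and Sfrp1 is above the band in the early and below it in the late arrays.

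Lrp6, the second coreceptor, showed no such swing, with 1555 and 1722 in the vehicle arrays, then 1718, 1575, 1554, 1562, 1577 and 1599 from 1 to 24 h. Its 1 h array lay between the vehicle arrays, as did the 3, 12, 18 and 24 h arrays, and the late minus early difference was -0.031 ± 0.0555 (SE) (limma adjusted p = 0.774, n = 3 each).

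Averaged by window, the tested Frizzled receptors differed little from vehicle. Fzd1 had 1421 and 1534 in the vehicle arrays, then 1499, 1213, 1404, 1494, 1448 and 1406 from 1 to 24 h. Its 3 h array was the lowest, at -0.28 against the vehicle mean, and the second Fzd1 probe set stood at -0.19 there. The 7-mean limma fit gave this Fzd1 value an unadjusted p of 0.0173 and an adjusted p of 0.485. Fzd4, a receptor known for its part in blood vessel growth, measured 893 and 963 in the vehicle arrays, then 1003, 887, 888, 997, 938 and 898 from 1 to 24 h, with E2 arrays on both sides of the vehicle arrays. Its probe sets differed. The one used stood at 0.11 at 1 h and -0.046 at 24 h. Another, with 715 and 844 in the vehicle arrays, stood at -0.18 and -0.32 at these times, and the last at 0.079 and -0.046.

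Fzd10 had 338 and 333 in the vehicle arrays, then 339.7, 386, 342, 339, 331 and 309 from 1 to 24 h. All 3 early arrays were above the vehicle arrays, the 3 h array by the most, and the 18 and 24 h arrays were below both. Late minus early was -0.12 ± 0.0625 (SE) (limma adjusted p = 0.312, n = 3 each), and the second Fzd10 probe set, with intensities between 45.4 and 69.8, stood at 0.45 at 24 h, where the one used stood at -0.12. For Fzd2, Fzd6, Fzd7 and Fzd8 the differences from vehicle lay between -0.088 and 0.002 in both windows. The opposite-strand transcript Fzd10os stood at -0.060 ± 0.0614 (SE) in the early and -0.042 ± 0.0614 (SE) in the late window. Under the filter, Fzd9 had 138 and 134 in the vehicle arrays, then 148, 145, 159, 144, 161 and 157 from 1 to 24 h, all 6 E2 arrays above both vehicle arrays, and Fzd3 and Fzd5 stood between -0.29 and 0.16 at all times.

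Lgr4, a receptor for R-spondins, had its lowest value at 3 h. Its intensity was 804 and 802 in the vehicle arrays, then 904, 576, 718, 733, 728 and 739 from 1 to 24 h. The vehicle arrays were 0.003 apart on the log2 scale, the 1 h array was above both, and the other 5 E2 arrays were below both. The differences from the vehicle mean were 0.17, -0.48, -0.16, -0.13, -0.14 and -0.12. In the 7-mean limma fit the 3 h value had an unadjusted p of 0.000859 and an adjusted p of 0.0929, the smallest of the 25 genes at any time. The second Lgr4 probe set, with intensities between 76.4 and 97.2, stood at 0.052 at 3 h and did not show the low value. By window Lgr4 was at -0.16 ± 0.142 (SE) in the early and -0.13 ± 0.142 (SE) in the late arrays (limma adjusted p = 0.974 and 0.786, n = 3 against 2).

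Lgr5, another R-spondin receptor and a stem cell marker of several epithelia, was flat by comparison, with 271 and 292 in the vehicle arrays, then 265, 287, 269, 275, 283 and 287 from 1 to 24 h. No E2 array exceeded both vehicle arrays. The R-spondins themselves were under the level filter. Rspo1, which luminal cells of the mouse mammary gland are known to release, had 56.3 and 56.3 in the vehicle arrays, then 55.6, 58.6, 51.2, 55.7, 50.6 and 57.7 from 1 to 24 h. Rspo3 had 155 and 130.4 in the vehicle arrays, then 143, 132, 133, 147, 164 and 164 from 1 to 24 h, with the 18 and 24 h arrays above both vehicle arrays, although its second probe set stood at -0.22 and -0.044 at those times. Rspo2 stood between -0.09 and 0.15 against its vehicle mean.

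Sfrp1, a secreted antagonist that binds Wnt ligands, was above vehicle in the early arrays and below it in the late arrays. Its intensity was 445 and 461 in the vehicle arrays, then 523, 491, 489, 434, 420 and 419.6 from 1 to 24 h. All early arrays exceeded both vehicle arrays, and all late arrays were under both. This pattern, in this direction, was met by 1 of the 25 genes (Sfrp1) and by 1.21% of all tested genes.

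Tested by window, Sfrp1 differed from vehicle by 0.15 ± 0.0532 (SE) in the early window (limma adjusted p = 0.851, n = 3 against 2) and by -0.094 ± 0.0532 (SE) in the late window (limma adjusted p = 0.656, n = 3 against 2). Late minus early was -0.24 ± 0.0476 (SE), with a 95% interval of -0.35 to -0.13, an unadjusted p of 0.0006 and a limma adjusted p of 0.0708 (n = 3 each), the smallest of the 25 genes in that comparison. With the skeletal muscle marker mean as a covariate it passed (-0.26, limma adjusted p = 0.0168), in a fit that called 9.75% of all tested genes. Leaving out the arrays of 3, 18 or 24 h in turn gave limma adjusted p-values of 0.168, 0.297 and 0.202.

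The 5 probe sets of Sfrp1 did not all show this course. Late minus early was -0.39, -0.24, -0.21, -0.072 and 0.034 on the log2 scale over the 5, all of which were above the level filter. The probe set with the value of -0.39 had 396 and 422 in the vehicle arrays, then 499.5, 445, 455, 352, 354 and 359 from 1 to 24 h. Its early arrays were all above and its late arrays all below the vehicle arrays. In a fit over all 17786 probe sets above the filter it passed the test (limma adjusted p = 0.0456), while the probe set used for Sfrp1 had an adjusted p of 0.0739. That fit called 29 of the 17786 probe sets higher and 35 lower. The probe set at 0.034 is of a kind that can bind other transcripts as well.

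**Figure D3:**
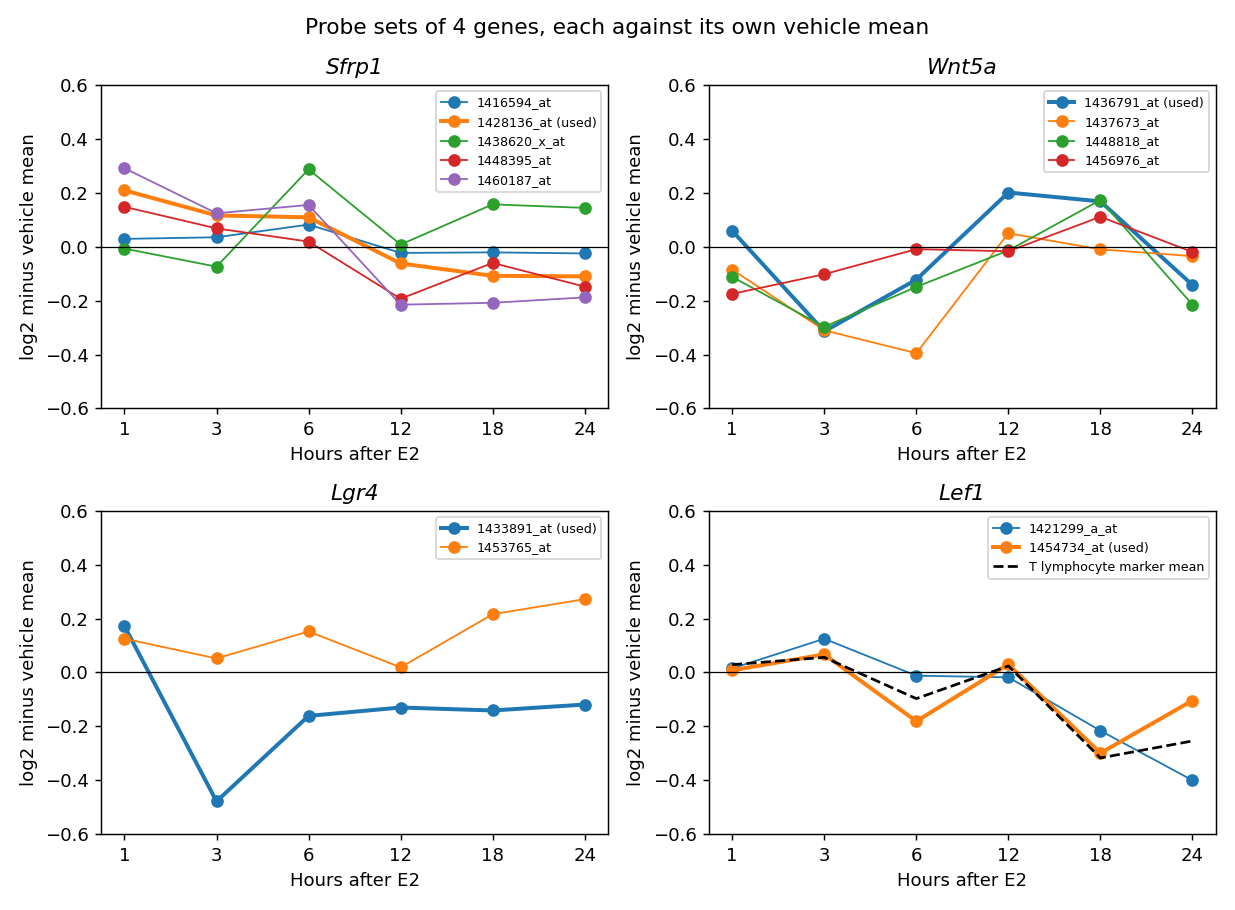
Log2 intensity minus the vehicle mean of the same probe set at 6 evenly spaced times after E2, for every probe set of Sfrp1, Wnt5a, Lgr4 and Lef1 (thick line, the probe set used for the gene), with the mean of the 18 tested T lymphocyte markers as a dashed line beside Lef1. The Wnt5a probe sets are all below 0 at 3 h, the Lgr4 probe sets stand at -0.48 and 0.052 at 3 h, and 4 of the 5 Sfrp1 probe sets are below 0 in the 3 late arrays.

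Dkk3, a divergent member of a family whose other members block Lrp5 and Lrp6, was highest in the early arrays. It measured 291 and 299.9 in the vehicle arrays, then 336, 341, 321, 267, 297 and 296 from 1 to 24 h. All 3 early arrays were above both vehicle arrays, the 12 h array was below both, and the 18 and 24 h arrays lay between them. The early window lay 0.17 ± 0.064 (SE) above vehicle (limma adjusted p = 0.851, n = 3 against 2). Late minus early was -0.22 ± 0.0572 (SE) (limma adjusted p = 0.119, n = 3 each), and its second probe set gave -0.24. That probe set stood at 0.006, 0.19 and 0.008 against its vehicle mean at 1, 3 and 6 h. Its 1 and 6 h values lay between its vehicle arrays, and its late window stood at -0.17.

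Sfrp2, an antagonist made largely by stromal cells, had 5604 and 4887 in the vehicle arrays, then 5262, 4549, 5238, 3759, 4586 and 5502 from 1 to 24 h. The 12 h array was the lowest of the 8, at -0.48 against the vehicle mean, while the 24 h array lay between the vehicle arrays. The vehicle arrays themselves differed by 0.20 on the log2 scale. The 7-mean limma fit gave the 12 h value an unadjusted p of 0.00381 and an adjusted p of 0.543. On that array the 11 fibroblast markers averaged -0.10 and the 13 macrophage markers -0.16 against vehicle, and the part of such shifts in the Sfrp2 value was not tested. By window Sfrp2 stood at -0.064 ± 0.138 (SE) in the early and -0.20 ± 0.138 (SE) in the late arrays.

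Sfrp4 had 1640 and 1587 in the vehicle arrays, then 1590, 1554, 1835, 1514, 1568 and 1762 from 1 to 24 h, with the 6 and 24 h arrays above both vehicle arrays. Sfrp5, known as an adipose tissue antagonist of Wnt5a in mice, had 487 and 458 in the vehicle arrays, then 462, 463, 463, 464, 463 and 434 from 1 to 24 h. Its 5 E2 arrays from 1 to 18 h lay between the vehicle arrays, and the 24 h array was below both.

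Dkk2 was the gene farthest from vehicle in relative terms, at a low level. This antagonist of the coreceptors had 113 and 102 in the vehicle arrays, then 106, 57.8, 64.8, 77.8, 79.6 and 92.1 from 1 to 24 h. The 3 h array was the lowest, the 5 arrays from 3 to 24 h were all below both vehicle arrays, and the values from 6 h on lay progressively closer to vehicle. On the log2 scale Dkk2 stood at -0.027, -0.90, -0.73, -0.47, -0.43 and -0.22 against the vehicle mean, where the vehicle arrays differed by 0.15. Of the 7277 genes under the filter, 0.0825% lay at least 1.5-fold below both vehicle arrays at 3 h and 0.0137% at 6 h. These shares include Dkk2, as 1 of 6 genes at 3 h and as the only gene at 6 h. When all genes were tested without the level filter, Dkk2 differed from vehicle by -0.55 ± 0.2 (SE) in the early window (limma adjusted p = 0.817, n = 3 against 2). It had 1 probe set.

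Dkk1, Dkk4 and Wif1, which block the coreceptors or bind the ligands, were also under the filter. Dkk1 lay between 43.95 and 52.9 on all arrays, Dkk4 between 60.4 and 71.1 and Wif1 between 23.1 and 27.8. Of the 5 tested antagonists, 2, 2, 3, 0, 0 and 1 were above both vehicle arrays from 1 to 24 h, where 39.7%, 35%, 38.6%, 37.9%, 27.2% and 29% of all tested genes were. Below both vehicle arrays were 0, 2, 0, 4, 3 and 2 of the 5 from 1 to 24 h, beside 22.1%, 28.6%, 30.3%, 25.2%, 44.2% and 46.4% of all tested genes. At 3 h as many antagonists were below both vehicle arrays as above both.

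Axin2, the feedback inhibitor and target gene, stayed within a narrow range. It had 538 and 537 in the vehicle arrays, then 534, 584, 577, 548, 579.5 and 566 from 1 to 24 h. The vehicle arrays were 0.003 apart on the log2 scale, and 5 of 6 E2 arrays were above both. The early and the late window each lay 0.07 above vehicle, with SEs of 0.056 and limma adjusted p-values of 0.961 and 0.708 (n = 3 against 2). The second Axin2 probe set, under the level filter with 65.4 and 66 in the vehicle arrays, stood at -0.019 and -0.085 in the same windows, in the opposite direction. The 95% interval of the late difference for Axin2 was -0.054 to 0.20.

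Lef1, a transcription factor that binds beta-catenin and that T lymphocytes also express, was lowest at 18 h. Its intensity was 504 and 539 in the vehicle arrays, then 524, 546, 459.8, 532, 424 and 485 from 1 to 24 h. The 6, 18 and 24 h arrays were below both vehicle arrays. On the log2 scale Lef1 stood at 0.008, 0.067, -0.18, 0.030, -0.30 and -0.10, and the T lymphocyte markers at 0.029, 0.056, -0.097, 0.024, -0.32 and -0.25, against the vehicle mean. The second Lef1 probe set stood at -0.22 at 18 h and -0.40 at 24 h. The late window differed from vehicle by -0.13 ± 0.1 (SE) (limma adjusted p = 0.714, n = 3 against 2). The summed intensity of the 18 T lymphocyte markers ran from 10160 to 12430 in the late arrays and from 11450 to 12540 in the vehicle arrays. That sum includes Thy1, the brightest of them, which is also in the fibroblast list. The 14 tested B lymphocyte markers averaged 0.136, 0.1, -0.144, 0.096, -0.386 and -0.385 from 1 to 24 h. The defining markers Cd3d, Cd3e and Cd3g were present, at mean intensities of 929, 949 and 387 over the 8 arrays. The part of lymphocytes in the Lef1 values was not tested.

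Between the windows, 3 of the 25 genes had late arrays that were all below all early arrays (Dkk3, Fzd10 and Sfrp1), which is 12%, against 15% of all tested genes, and 0 of 25 had late arrays above all early arrays (8.96% of all). Against vehicle, 4 of 25 did not overlap in the early window and were higher (Dkk3, Fzd10, Sfrp1 and Wnt11), beside 13.7% of all genes, and 0 were lower, beside 6.23%. In the late window 1 of 25 was higher without overlap (Axin2, 11.1% of all) and 3 were lower (Lgr4, Lrp5 and Sfrp1, 13.3% of all). Of these 6 shares, that of genes higher in the early window than in vehicle was slightly above the share of all genes, and the others were below it.

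**Figure D4:**
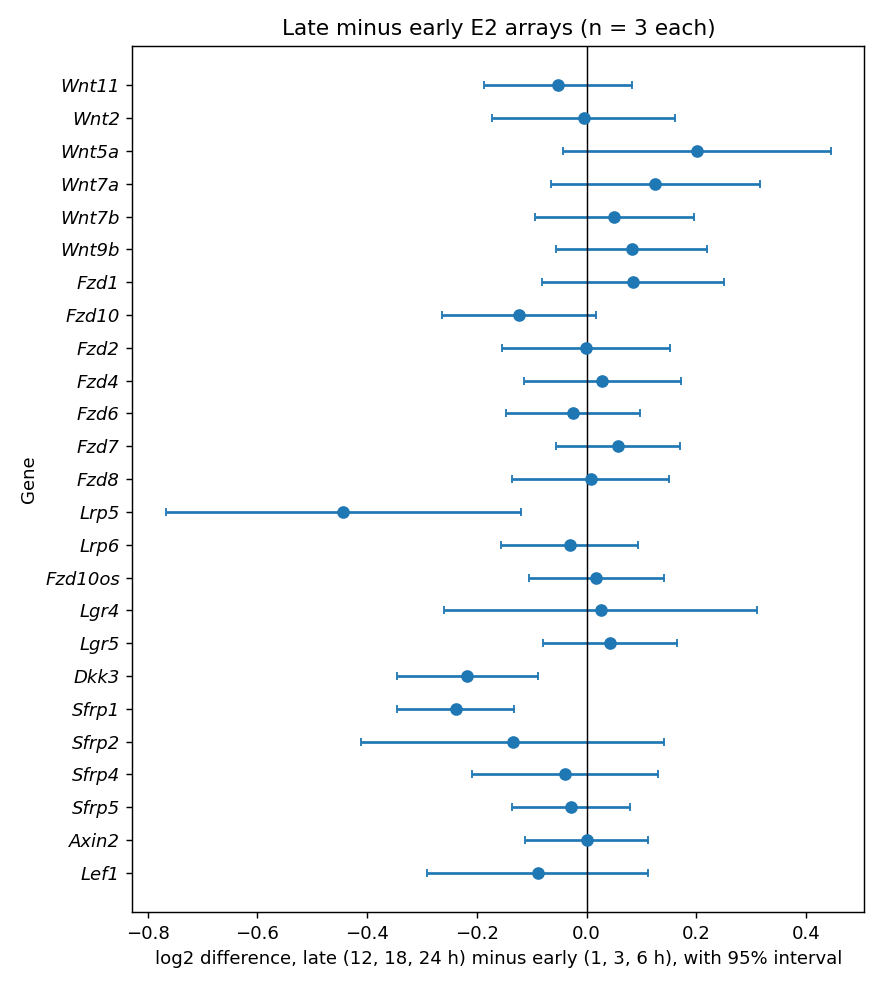
Late (12, 18 and 24 h) minus early (1, 3 and 6 h) E2 arrays on the log2 scale for the 25 tested Wnt pathway genes, points with 95% intervals from limma, n = 3 arrays in each window. The intervals of Lrp5, Dkk3 and Sfrp1 lie below 0, at -0.44, -0.22 and -0.24, and the adjusted p-values of all 25 genes exceed 0.05.

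The rest of the pathway was described by a list of 53 genes of Wnt secretion, other receptors, the destruction complex, beta-catenin and its partners, and planar polarity, of which 36 were tested. Of these, 0 passed the test in any of the 4 comparisons, with 1, 3, 6 and 5 of 36 at an unadjusted p below 0.05 (5.38%, 7.6%, 19.1% and 20.4% of all tested genes), and 0 passed the 1.5-fold threshold at any time. Their median difference from vehicle was -0.012 in the early and -0.037 in the late window. Apc, a component of the destruction complex, stood at 0.19 ± 0.0902 (SE) in the early window. Tle3, a corepressor that binds the Lef1 family, stood at 0.15 ± 0.0718 there (limma adjusted p = 0.9095 for both, n = 3 against 2). Late minus early was -0.33 ± 0.0642 for Tle3 (limma adjusted p = 0.068, n = 3 each). Apcdd1, a membrane inhibitor of the pathway, was at -0.22 ± 0.145 in the late window, and Znrf3, which removes Frizzled from the surface, at -0.19 ± 0.0801 (limma adjusted p = 0.69 and 0.648, n = 3 against 2). Bcl9l, a coactivator of beta-catenin, stood at -0.16 ± 0.064 in the early window (limma adjusted p = 0.863).

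A list of 25 genes known as targets of beta-catenin in various tissues held 17 tested genes. Of the listed genes, 4 were already among the 47 genes above: Axin2, Lef1 and Lgr5, which were tested, and Dkk1, which was not. Apcdd1, Znrf3 and Tcf7l2 were also in the list of the rest of the pathway. Of the 17 tested genes, 0 passed the test in any comparison (2, 2, 4 and 5 of 17 at an unadjusted p below 0.05, beside the shares of all tested genes given above). One of the 17, Ccn5, a secreted matricellular protein known to be induced by estrogen in human breast cancer cells, lay at least 1.5-fold above both vehicle arrays, at 6 h, where 0.742% of all tested genes passed that threshold in either direction. Ccn5 had 282 and 206 in the vehicle arrays, then 251, 399.8, 516, 309, 293 and 281 from 1 to 24 h. The 3, 6, 12 and 18 h arrays were above both vehicle arrays, which themselves lay well apart, and the 1 and 24 h arrays lay between them. At 6 h the 7-mean limma fit gave 1.10 above the vehicle mean (unadjusted p = 0.00108, adjusted p = 0.12), and at 3 h it gave 0.73 (adjusted p = 0.309). Myc stood at 0.27 ± 0.107 (SE) above vehicle in the early window (limma adjusted p = 0.851, n = 3 against 2) and Ccnd1, cyclin D1, measured 1081 and 1266 in the vehicle arrays, then 1300, 1192, 1223, 1210, 1105 and 1131 from 1 to 24 h. The median of the 17 genes was 0.011 in the early and -0.058 in the late window.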

How the data were processed

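Gene expression was measured on 8 Affymetrix arrays. The deposited values are linear intensities, one per probe set and array, and GCOS 1.0 and RMA are listed as tools, per the submitters' processing notes, with no role given. The log2 of the deposited intensity was used with no further normalization. Of 45101 probe sets, 34945 carried 1 gene symbol, 932 several and 9160 none, with 64 control probe sets left out. The brightest probe set stood for each of 18193 genes, and the 10916 genes whose mean log2 level reached 7.72, the 40th percentile, were tested.

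Windows of E2 arrays and vehicle were compared with limma 3.58.1 in R 4.3.3, with 3 group means, 5 residual degrees of freedom, an intensity trend and Benjamini-Hochberg adjustment over the 10916 genes, the threshold being an adjusted p of 0.05. Each window mixes 3 times, so its spread holds change over time as well as error. A slope on log2 hours used the 6 E2 arrays (4 residual degrees of freedom), and a fit with 7 group means had 1. Single times were called at 1.5-fold from both vehicle arrays. The number of arrays limits the precision. The fits were tested on simulated data.

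The members and the gene lists were chosen with earlier results of these data known. Named genes were those of a written rule on role, distance from vehicle and test rank. Tcf7 had no probe set with a single symbol and was not analysed here, and 1 gene with a Wnt symbol is not reported here. Alternatives were other filters, normalizations, fold thresholds, probe set rules and limma settings, the skeletal muscle marker mean as a covariate, and leaving out each array.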

Additional observations from a re-analysis of the deposited data

Results flagged for a closer look

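Sfrp1 stood out because all 3 of its early E2 arrays were above both vehicle arrays and all 3 late ones below both. Its late minus early difference was -0.238 on the log2 scale (limma adjusted p = 0.0708, n = 3 arrays in each window), which did not pass the threshold, and 1.21% of all tested genes showed the same arrangement.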

How the results depend on the processing

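Over the 4 window and slope comparisons, the count of Wnt pathway genes past the adjusted threshold was taken for each combination of comparison and alternative setting. It stayed at 0 in 62 combinations and came to 1 in 4. For the late against the early window it was 1 with every probe set tested singly (Sfrp1), where 29 of 17786 probe sets were called higher and 35 lower. It was also 1 with the skeletal muscle marker mean as a covariate (Sfrp1, beside 9.75% of all tested genes). Leaving out each array gave 0 to 1 for that comparison and 0 to 1 for the slope, the 1 being Lrp5 without the 1 h array in both. At single times, a threshold of 1.3-fold gave 2 genes at 3 h (Lrp5 above and Lgr4 below, beside 1.91% of all genes). It gave 1 at 12 h (Sfrp2 below, beside 0.595%). With no filter, 1 gene passed the 1.5-fold threshold at 3 h and 1 at 6 h, Dkk2 both times. Among all genes under the filter, 0.344% at 3 h and 0.385% at 6 h passed it in either direction. Among all tested genes, 0.797% and 0.742% did so at these times. The limma fit with 7 group means called no Wnt pathway gene. None of the 130 values followed for single genes reversed in sign. Even so, other probe sets of Axin2, Wnt7b, Lgr4, Fzd10 and Sfrp1, most of them under the level filter, gave values of opposite sign, as described above.

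Counts over all genes moved more. The early window against vehicle, with 0 genes called, gave 1 with no filter, 1 with the mean of all probe sets, 11 with the muscle covariate and 0 to 49 on leaving out each array. The late against the early window, with 60, gave 29 under quantile normalization, 23 with the mean of probe sets, 1064 with the muscle covariate and 0 to 232 on leaving out each array (232 when the 1 h array was left out, 0 when that of 18 or 24 h was). The slope, with 9, gave 2 under quantile normalization, 19 with arrays centred on their medians, 5 with the muscle covariate and 1 to 298 on leaving out each array (298 without the 1 h array). The cause was not tested. No paired analysis was possible because each E2 time had 1 array, so no replicate number beyond the first was shared with vehicle. With 1 array per time, values at single times had no replicate of their own.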
